A study of Mus musculus with 6 samples.

Results

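The voltage-gated calcium and sodium channel genes of mouse pancreatic islets were compared between islets of Klf4fl/fl;Gcg-iCre animals and islets of Klf4+/+;Gcg-iCre animals. The 40 genes were taken by symbol, with earlier results of these data known, out of 55536 genes in the count table. They are 10 pore-forming calcium channel genes (Cacna1), 4 alpha2delta genes (Cacna2d), 4 calcium channel beta genes (Cacnb), 8 gamma genes (Cacng), 10 pore-forming sodium channel genes (the Scn genes ending in a) and 4 sodium channel beta genes (the Scn genes ending in b). The 3 control libraries carry intact Klf4 together with the Cre transgene, and the 3 knockout libraries carry Klf4 flanked by loxP sites and the same Cre transgene, so both groups carry Cre. The series was designed to ask how KLF4, a zinc-finger transcription factor, regulates genes in alpha cells in vivo. Its mice are described as C57B1/6J, and the labels used here name neither age nor sex. Gcg-iCre places Cre under glucagon gene control, so deletion is directed at alpha cells, whereas polyA RNA was sequenced from whole islets, in which alpha cells lie among beta, delta and other cells.

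Islet endocrine cells are electrically excitable. When the membrane depolarises, voltage-gated sodium channels carry the fast inward current of the action potential and voltage-gated calcium channels admit the calcium that triggers exocytosis of insulin, glucagon or somatostatin granules. Each channel is built around a large pore subunit; the extracellular alpha2delta and intracellular beta subunits of calcium channels govern trafficking and gating, and the single-span sodium channel beta subunits do the same for sodium channels.

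Each library held between 101277200 and 110243918 counts, and a count of 3 in a library corresponded to 0.0272 to 0.0296 CPM, the usual per-library scaling that gives every library the same total. The Klf4 gene itself had normalized counts of 3148, 2879 and 2015 in the controls and 2340, 2540 and 2277 in the knockouts, with a log2 fold change of -0.17 ± 0.15 (SE) and a DESeq2 adjusted p of 0.774, so these whole-gene counts did not check the labels. The female transcript Xist and the Y-linked Ddx3y separated the libraries exactly by genotype: Ddx3y had 0 counts in each control and 6633, 5476 and 5611 in the knockouts. Every difference given here is thus one of sex as well as of genotype, and these cannot be told apart. Of the 10 alpha-cell markers 5 fell, and their summed level was 38458 to 56526 CPM in the controls and 29417 to 35425 in the knockouts. The 10 beta-cell markers summed to 184824 to 203565 and 200548 to 204926 CPM, with 1 lower. Of the 6 mesenchymal markers 5 rose (427 to 586 against 852 to 934 CPM), and the 6 acinar markers ran from 4534 to 9323 in the controls and from 12013 to 16324 in the knockouts with none past the threshold. Summed levels of the delta-cell, glial, neuronal, mural, striated muscle, endothelial, leukocyte and duct marker lists overlapped between the groups, with 1 leukocyte marker past the threshold and the muscle marker Myh4 at 0 counts throughout. What these shifts in marker levels contributed to the channel values was not tested. In whole islets, fewer cells of a type and less RNA per cell cannot be told apart.

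The channel transcripts formed a clear hierarchy. Because long transcripts collect more counts, genes were ranked by CPM divided by the kilobases of annotated exon, called the per-kilobase level here and given as mean ± SD over all 6 libraries. Cacnb3, a calcium channel beta subunit, stood at 18.7 ± 1.23 and Cacna2d1, the alpha2delta subunit that binds gabapentin, at 18.2 ± 0.972. Their ranges overlapped, and Cacnb3 was above Cacna2d1 in 3 of 6 libraries. Cacna1d and Cacna1a, the pores of an L-type and of the P/Q-type calcium channel, followed at 14.1 ± 1.10 and 11.3 ± 1.27, Cacna1d above Cacna1a in 6 of 6 libraries. Scn9a, the pore of a tetrodotoxin-sensitive sodium channel best known from pain-sensing neurons, reached 7.65 ± 0.676 and was the highest sodium channel gene. Cacna1c, the pore of the other widely expressed L-type channel, had 6.67 ± 0.925, and Cacng4, which belongs to the gamma family but is best known as an auxiliary protein of AMPA-type glutamate receptors, had 6.29 ± 0.669. Cacna1c and Cacng4 did not separate, Cacna1c being higher in 3 of 6 libraries. Others among the 12 highest were Scn7a at 4.09 ± 0.646, Cacnb1 at 3.80 ± 0.283, Cacnb2 at 3.43 ± 0.125 and Scn3b at 2.95 ± 0.391. The order depended in part on the length used: with the longest transcript of each gene in place of all its exons, Cacnb2 stood at 9.03 and above Cacnb1 at 5.06, Cacna1c at 10.7 and above Scn9a at 9.93, and Cacna2d1 at 30.4 and above Cacnb3 at 27.4. Among the genes with enough counts to be tested, Cacnb3 lay at percentile 92.5 of the per-kilobase level and Scn9a at percentile 80.3.

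**Figure D1:**
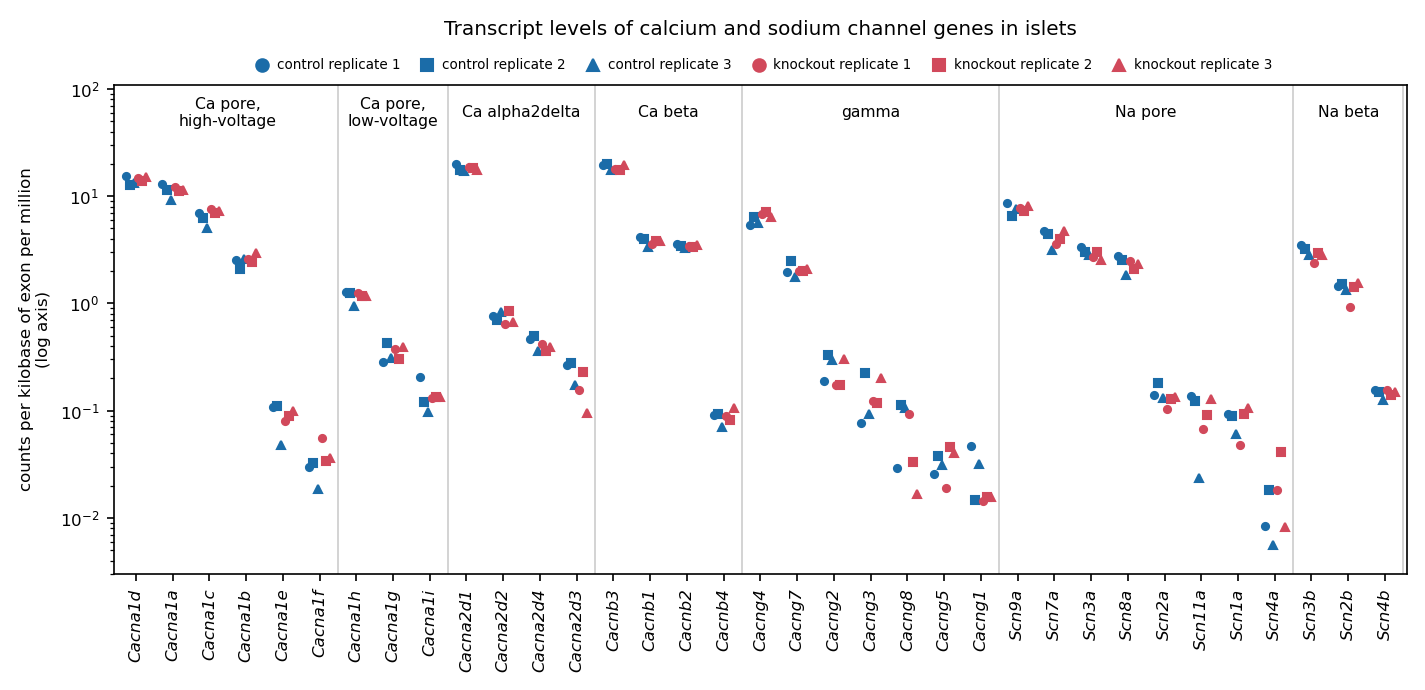
Per-kilobase level (CPM per kilobase of exon, log axis) of 35 channel genes that entered the fit, 1 point per library, ordered within each role group. Each role group has 1 to 4 genes above a level of 1, and the lowest mean among the genes plotted is 0.0166, for Scn4a.

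Several of the genes that were lowest in islets are known from channels of other tissues. Cacna1s, the skeletal muscle L-type pore, had raw counts of 0, 6 and 2 in the controls and 0 in each knockout. Cacng6 had 0, 2 and 2 against 0 in each knockout, and Scn10a, a sensory neuron sodium channel, had 2 counts in 1 control library and 0 elsewhere. With these few counts no fold is given. Scn4a, the skeletal muscle sodium channel, had 6, 14 and 4 counts in the controls and 14, 30 and 6 in the knockouts, and Cacng1, the gamma subunit of the skeletal muscle channel, had 2 to 6 in all 6 libraries. Cacna1f, the retinal L-type pore on chromosome X, had a per-kilobase level of 0.0345 ± 0.0122. Cacna1e, the R-type pore, was also low at 0.0895 ± 0.0235.

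Within each family a few genes supplied most of the transcripts. Among the 10 calcium channel pores, Cacna1d accounted for 39.2% ± 2.67 (SD, n = 3) of the summed per-kilobase level in the controls and 38.5% ± 0.587 in the knockouts, and Cacna1a for 31.6% ± 2.11 and 30.5% ± 0.771. Cacna1c took 17.3% ± 1.21 and 19.2% ± 0.305. Cacna1b, the N-type pore, took 6.94% and 7.04%, and Cacna1h, the most abundant of the low-voltage-activated T-type pores, 3.31% and 3.17%. Of the alpha2delta transcripts Cacna2d1 made up 92.6% and 93.5%. Cacnb3 held 72.1% and 71.6% of the beta subunit transcripts, ahead of Cacnb1 at 14.5% and 14.6% and Cacnb2 at 13.1% and 13.4%. With longest-transcript lengths Cacnb2, at 21.7% over all libraries, came before Cacnb1, at 12.2%, and Cacnb3 held 65.9%. Among the sodium channel pores Scn9a held 43.4% ± 4.84 and 44.6% ± 1.38, Scn7a 23.1% and 23.7%, Scn3a 17.6% and 16.0%, and Scn8a 13.5% and 13.4%. Scn7a encodes an atypical sodium-sensing channel rather than a classical voltage-gated pore.

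**Figure D2:**
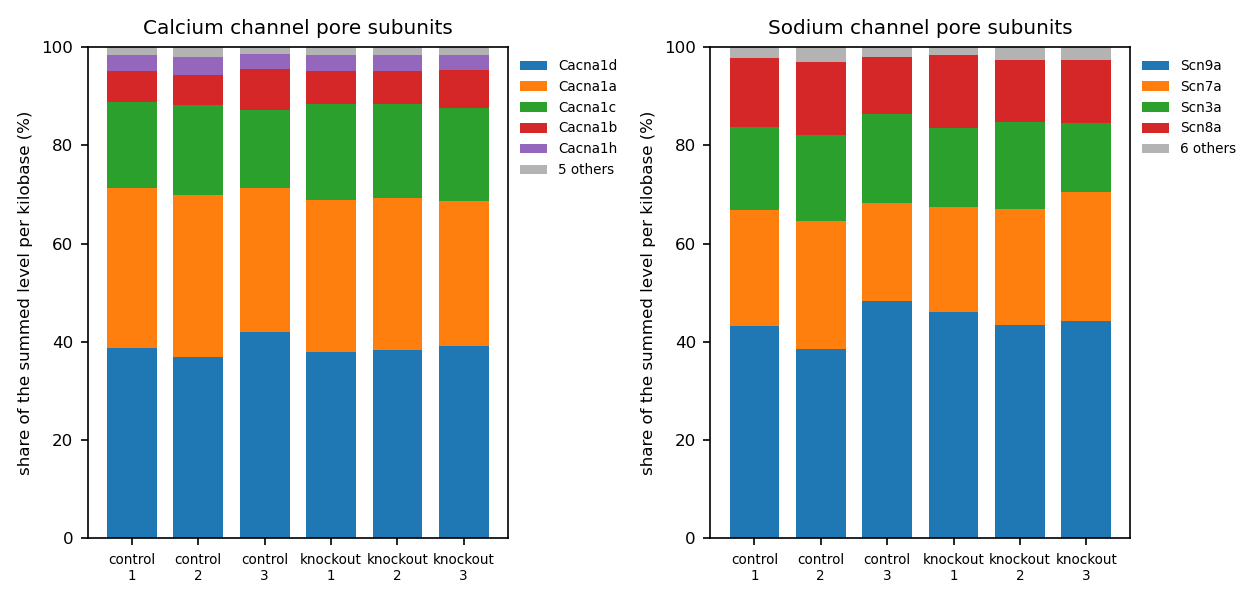
Share of each gene in the summed per-kilobase level of the calcium channel pores (left) and the sodium channel pores (right), in percent, 1 stacked bar per library. The order of the main genes was alike in the libraries, with Cacna1d between 36.8% and 42.1% of the calcium pores and Scn9a between 38.6% and 48.3% of the sodium pores.

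Neighbouring family members on 1 chromosome had very different levels. In the mouse genome build GRCm38 the sodium channel cluster of chromosome 2 holds, in this order, Scn3a (65457118 to 65567627), Scn2a (65620771 to 65767447), Scn1a (66270778 to 66440840), Scn9a (66480080 to 66634962) and Scn7a (66673425 to 66784914). Scn9a, Scn7a and Scn3a had per-kilobase levels of 7.65, 4.09 and 2.92, whereas the brain sodium channels Scn2a and Scn1a, which lie between them, had 0.137 ± 0.0257 and 0.0816 ± 0.0220. On chromosome 9, Scn10a (119608456 to 119719322) and Scn11a (119753759 to 119825456) lie side by side, and Scn11a was the higher at 0.0953 ± 0.0440. On chromosome 11 Cacng4 (107732357 to 107794557) had 6.29 and its neighbours Cacng1 (107703218 to 107716522) and Cacng5 (107874605 to 107915055) had 0.0231 ± 0.0134 and 0.0333 ± 0.0100. On chromosome 7 Cacng7 (3332955 to 3368221) had 2.05 ± 0.238, against 0.0650 ± 0.0432 for Cacng8 (3390683 to 3415648) beside it.

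KLF4 belongs to a family whose zinc fingers bind CACCC-type and related GC-rich elements, so promoters were searched for such letters. RefSeq promoter sequences (GRCm38.p6) were matched for 30 of the 40 genes, with 41 start sites among them. In the 250 bases before each start, CACCC on either strand occurred in 26 of 41 promoters (63.4%), against 52.0% of all 32851 promoters in the table. GGTGTGG on either strand occurred in 0 of 41 (6.52% of all promoters), and GGCGTGG in 2 of 41 (4.88%, against 7.54%), those of Cacna1b and Cacna1s. A CACCC match on the other strand reads GGGTG and can run into a GGTGTGG match. Promoters are printed for Cacna1b, which holds the longer motif, for Cacna1c, which had the smallest p of the channel genes, and for 3 of the most abundant members. They are shown on the gene's strand, with matches to the motifs in capitals. Cacna1b lies at chr2:24763153-24763402 on the minus strand and has overlapping GGCGTGG matches and 2 CACCC matches. Cacna1c lies at chr6:119196419-119196659 on the minus strand, without the last 9 bases before the start, which are exonic in another transcript. Cacna2d1 lies at chr5:15934441-15934690 on the plus strand, Cacnb3 at chr15:98632078-98632327 on the plus strand and Scn9a at chr2:66634963-66635212 on the minus strand. Cacna1c had 3 matched starts and Cacnb3 had 2, and the window of the most upstream one is printed. The Cacnb3 window lies inside the bounds of the annotated gene (98630840 to 98644529).
Cacna1b: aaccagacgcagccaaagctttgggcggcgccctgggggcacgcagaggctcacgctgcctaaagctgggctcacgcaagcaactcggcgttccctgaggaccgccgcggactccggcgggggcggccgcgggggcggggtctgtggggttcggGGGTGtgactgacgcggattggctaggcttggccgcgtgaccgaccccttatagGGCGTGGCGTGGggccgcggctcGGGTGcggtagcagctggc
Cacna1c: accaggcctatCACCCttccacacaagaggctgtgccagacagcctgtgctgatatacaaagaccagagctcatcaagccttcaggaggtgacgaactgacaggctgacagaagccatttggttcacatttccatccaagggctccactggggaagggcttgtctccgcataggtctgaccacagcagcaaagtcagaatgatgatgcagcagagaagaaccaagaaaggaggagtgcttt
Cacna2d1: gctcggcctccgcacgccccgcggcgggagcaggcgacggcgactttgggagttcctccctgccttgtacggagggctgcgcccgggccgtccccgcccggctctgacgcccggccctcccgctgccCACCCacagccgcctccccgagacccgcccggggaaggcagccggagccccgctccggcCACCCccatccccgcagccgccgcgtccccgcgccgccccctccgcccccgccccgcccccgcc
Cacnb3: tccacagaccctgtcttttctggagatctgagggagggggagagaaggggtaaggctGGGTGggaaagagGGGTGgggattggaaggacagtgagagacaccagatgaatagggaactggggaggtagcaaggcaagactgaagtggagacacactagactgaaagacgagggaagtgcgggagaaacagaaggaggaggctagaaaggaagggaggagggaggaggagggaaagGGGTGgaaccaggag
Scn9a: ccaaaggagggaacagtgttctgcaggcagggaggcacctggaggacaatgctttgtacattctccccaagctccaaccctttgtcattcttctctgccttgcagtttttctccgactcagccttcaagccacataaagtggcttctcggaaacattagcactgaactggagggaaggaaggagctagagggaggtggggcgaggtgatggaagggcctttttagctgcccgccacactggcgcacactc
The window of Cacna2d1 is 82.4% G or C and holds 2 CACCC matches, that of Cacnb3 is 56.0% and holds 3, and that of Scn9a is 54.4% and holds none of the motifs. A match in these letters is a description and not evidence of binding.

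No channel gene passed the threshold for a difference between knockout and control islets. Of the 40 genes 37 had at least 10 counts in total and entered the fit, and DESeq2 gave 33 of them an adjusted p; 0 of 33 were under 0.05. Over all genes, 389 of 17797 (2.19%) passed, with 1.53% higher and 0.657% lower in the knockouts, so the channel genes' count of 0 lies near that background. edgeR's quasi-likelihood test also called 0 channel genes, where it called 29 genes (0.115%) over the whole table. At an unadjusted p under 0.05 there were 3 channel genes with DESeq2, Cacna1c, Cacng4 and Scn3b, and 2 with edgeR, against 11.5% of all genes with DESeq2. The values of knockout and control libraries did not overlap in 3 of 33 channel genes (9.09%), against 17.3% of all genes. The knockouts lay above in Cacna1c and Cacna1f (9.06% of all genes) and below in Scn2a (8.23% of all genes). On the CPM scale, without size factors, the groups of Cacna1c and Scn2a overlapped. The median log2 fold change of the 33 genes was 0.0011 and the median size 0.078, beside -0.0061 and 0.11 for all genes, and 17 of the 33 values were positive. Labels do not say whether the 3 libraries of a group come from separate animals, so p-values measure only the spread between these libraries.

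The precision followed abundance. All intervals are for whole-islet counts, and the change within alpha cells alone was not measured. For 15 genes with a mean of at least 1000 normalized counts (counts divided by each library's DESeq2 size factor), every 95% confidence interval lay within a 1.5-fold change in either direction, and in 10 of them within 1.25-fold. Of the 16 genes with means from 50 to 1000, 14 had intervals within 2-fold. Of the 9 genes under 50, 3 were too low to be fitted and none had an interval within 2-fold.

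**Figure D3:**
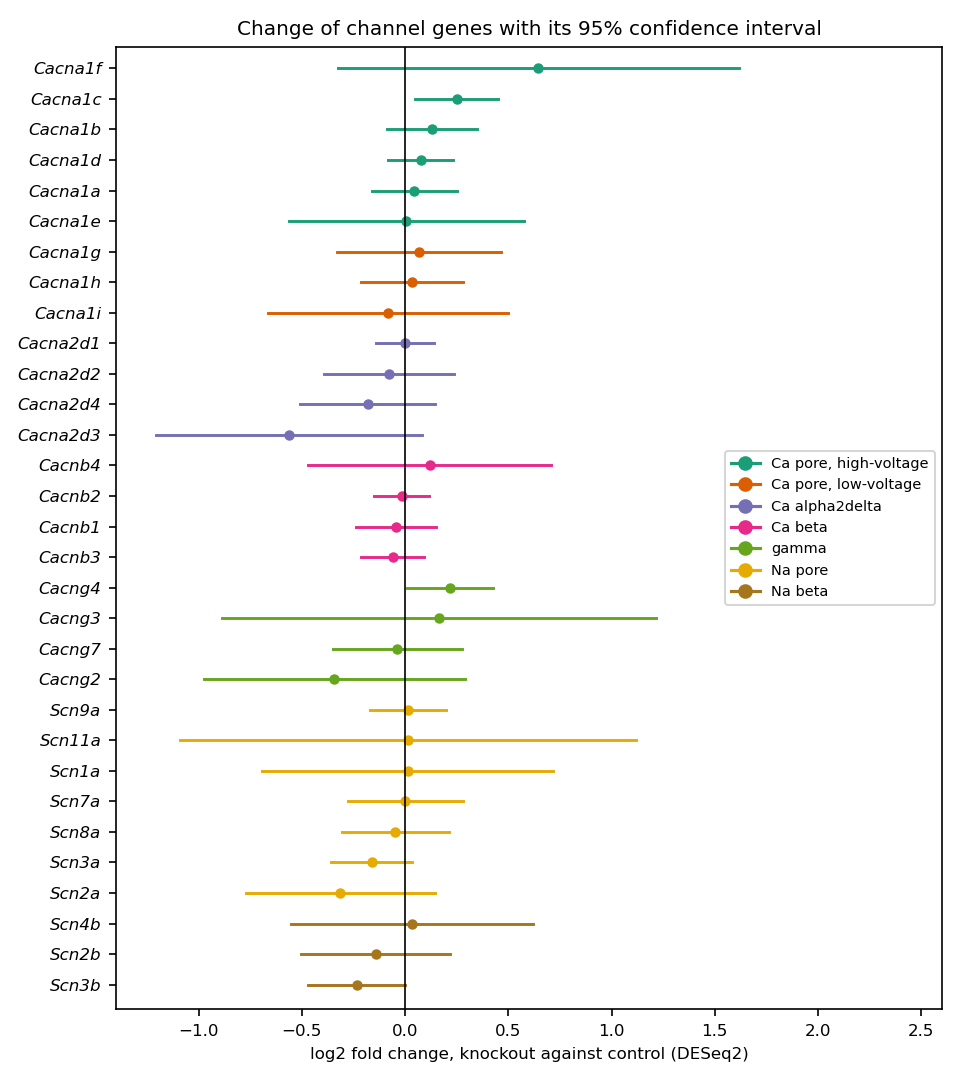
Log2 fold change of knockout against control (DESeq2) with its 95% confidence interval for 31 of the 33 channel genes given an adjusted p, grouped by role. Points lie between -0.56 (Cacna2d3) and 0.65 (Cacna1f), both with wide intervals, and abundant genes such as Cacna2d1 and Cacnb2 lie near 0 with narrow ones.

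Among the high-voltage-activated calcium channel pores, 0 of the 6 given an adjusted p passed and all 6 fitted values were positive, from 0.01 for Cacna1e to 0.65 for Cacna1f. Cacna1d (chromosome 14, 30039939 to 30491455) had normalized counts of 19770, 16747 and 17892 in the controls and 19365, 18538 and 19406 in the knockouts. The groups overlapped, and the change lay between -5.52% and 17.4% (95% confidence interval), with a log2 fold change of 0.07 ± 0.08 (SE). Cacna1a (chromosome 8, 84388440 to 84640246) had 15047, 13574 and 11207 against 14325, 13479 and 13299, a log2 fold change of 0.05 ± 0.11 with an interval of -10.6% to 19.1%. Its knockout values all fell inside the range of the controls. The values of Cacna1a and Cacna1e turned negative when single libraries were left out.

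Cacna1c (ENSMUSG00000051331, chromosome 6, 118587240 to 119196418, minus strand) had the smallest p among the channel genes. Its normalized counts were 15048, 13996 and 11385 in the controls and 16724, 15574 and 15750 in the knockouts. On this scale every knockout library lay above every control library, with control library 3 well below the other two controls. The means were 13476 ± 1886 and 16016 ± 619 (SD, n = 3), the log2 fold change was 0.25 ± 0.10 (SE), and the interval ran from 3.26% to 36.8%. Its unadjusted p was 0.0161, and the adjusted p was 0.249 with DESeq2 and 0.470 with edgeR, so it did not pass. Without control library 3 the log2 fold change was 0.14 with a DESeq2 adjusted p of 0.200, and without control library 1 it was 0.33 with 0.0651. Cacna1f (chromosome X, 7607083 to 7635196) had raw counts of 28, 32 and 17 in the controls and 56, 32 and 34 in the knockouts. After normalization its groups did not overlap, but the interval ran from -20.1% to 206% and the DESeq2 adjusted p was 0.714. Without knockout library 1 its log2 fold change was 0.39. Cacna1b had 2209 to 2772 normalized counts in the controls and 2557 to 3006 in the knockouts.

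The low-voltage-activated T-type pores open near the resting potential and help to pace firing. None of the 3 passed. Cacna1h, the highest of them, had 1275, 1292 and 998 normalized counts in the controls and 1276, 1212 and 1165 in the knockouts, a log2 fold change of 0.03 ± 0.13. Cacna1g had 292 to 453 against 324 to 408, and Cacna1i 104 to 206 against 136 to 139.

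The abundant auxiliary calcium channel subunits were measured precisely in whole-islet RNA. None of 4 alpha2delta genes and none of 4 beta genes passed. Cacna2d1 (chromosome 5, 15934691 to 16374511) had 24911, 23062 and 22802 normalized counts in the controls and 24421, 24007 and 22428 in the knockouts, with means of 23592 ± 1150 and 23618 ± 1052. The groups overlapped over nearly their whole range, and the interval of the change was -9.17% to 10.3%. Cacnb2 (chromosome 2, 14603088 to 14987908), a beta subunit prominent in heart, had 4846, 4795 and 4664 against 4678, 4672 and 4793. Its libraries varied by only 1.97% and 1.45% (coefficient of variation) and the interval was -9.82% to 8.36%. Cacnb3 (chromosome 15, 98630840 to 98644529) had 8027, 8441 and 7493 against 7495, 7430 and 8061, an interval of -13.7% to 6.67%. Cacnb1 (chromosome 11, 98001508 to 98023034), the beta subunit of the skeletal muscle channel, had 1934, 1882 and 1651 against 1693, 1832 and 1776. Both groups again overlapped. Cacnb4, a beta subunit of brain channels, had 67.9 to 88.3 against 78.4 to 97.8.

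Cacna2d3 (chromosome 14, 28904943 to 29721864) had the most negative fitted value of the 33 genes given an adjusted p. Its normalized counts were 234, 256 and 161 in the controls and 142, 215 and 85.8 in the knockouts. The groups overlapped through control library 3 and knockout library 2. The log2 fold change was -0.56 ± 0.33 (SE), with an interval of -56.6% to 5.81%, an unadjusted p of 0.0870 and a DESeq2 adjusted p of 0.544. It was -0.29 without knockout library 3 and -0.93 without knockout library 2. Cacna2d2 had 581 to 707 against 532 to 720 and Cacna2d4 370 to 497 against 361 to 416.

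Of the gamma family 4 of 8 genes were given an adjusted p and none passed. Cacng4 (ENSMUSG00000020723, chromosome 11) had normalized counts of 1950, 2390 and 2181 in the controls and 2563, 2696 and 2329 in the knockouts. Knockout library 3 lay below control library 2, so the groups overlapped. The means were 2174 ± 220 and 2529 ± 186 (SD, n = 3), and the log2 fold change was 0.22 ± 0.11 (SE) with an interval of 0.733% to 34.4%. The unadjusted p was 0.0395 and the adjusted p 0.392 with DESeq2 and 0.502 with edgeR. Without control library 1 the log2 fold change was 0.15. Cacng7, a related auxiliary protein, had 463 to 637 against 508 to 522, and Cacng2, the founding member of the AMPA receptor auxiliary proteins, 105 to 190 against 100 to 170. Cacng3 had 21.8 to 65.3 against 35.1 to 57.9. Cacng8 had raw counts of 7, 29 and 25 against 24, 8 and 4, Cacng5 of 10, 16 and 12 against 8, 18 and 16, and neither these nor Cacng1 was given an adjusted p.

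Sodium channel pores showed no called difference either, with 0 of the 8 genes given an adjusted p passing, 4 positive and 4 negative fitted values. Scn9a had 11161, 8858 and 10392 normalized counts in the controls and 10330, 9924 and 10493 in the knockouts. All 3 knockout values lay within the range of the controls, and the interval of the whole-islet change was -11.0% to 14.9%. Scn3a, a sodium channel expressed widely in the embryonic brain and also in islets, had 4271, 3946 and 3800 against 3522, 3990 and 3229. Knockout library 2 lay inside the control range and the others below it. Its log2 fold change was -0.16 ± 0.10 (SE), the interval -22.0% to 2.38% and the DESeq2 adjusted p 0.583. It was -0.094 without knockout library 3 and -0.25 without knockout library 2. Scn7a had 3502, 3410 and 2465 against 2740, 3092 and 3555, means of 3126 ± 574 and 3129 ± 409. Scn8a, which clusters at the axon initial segment of neurons, had 3091 to 4469 against 3507 to 4102.

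Scn2a had 181, 245 and 181 normalized counts in the controls and 138, 175 and 176 in the knockouts. The knockouts lay just below the controls without overlap, with a log2 fold change of -0.31 ± 0.23 (SE), an interval of -41.4% to 10.5% and a DESeq2 adjusted p of 0.702. Without control library 2 it was -0.15, and without knockout library 1 -0.21. Scn4a, with the few counts given above, had a fitted log2 fold change of 1.08 ± 0.91 and no adjusted p. The other low sodium channel pores scattered: Scn11a ran from 14.9 to 83.3 in the controls and from 41.6 to 77.8 in the knockouts, and Scn1a from 73.2 to 106 and from 55.7 to 120.

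The 4 sodium channel beta genes, whose products are cell adhesion molecules as well as channel subunits, had 1 positive and 3 negative fitted values and none passed. Scn3b (ENSMUSG00000049281, chromosome 9, 40269217 to 40291618) had 1935, 1861 and 1652 normalized counts in the controls and 1340, 1718 and 1573 in the knockouts. Knockout library 2 lay above control library 3, so the groups overlapped. The means were 1816 ± 147 and 1544 ± 191 (SD, n = 3), and the log2 fold change was -0.23 ± 0.12 (SE). The unadjusted p was 0.0495 with DESeq2 and 0.0609 with edgeR, and the adjusted p was 0.432 and 0.554. Without knockout library 1 the log2 fold change was -0.14. Scn2b had 661 to 737 against 450 to 740, and Scn4b 67.9 to 79.3 against 74.3 to 81.2.

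**Figure D4:**
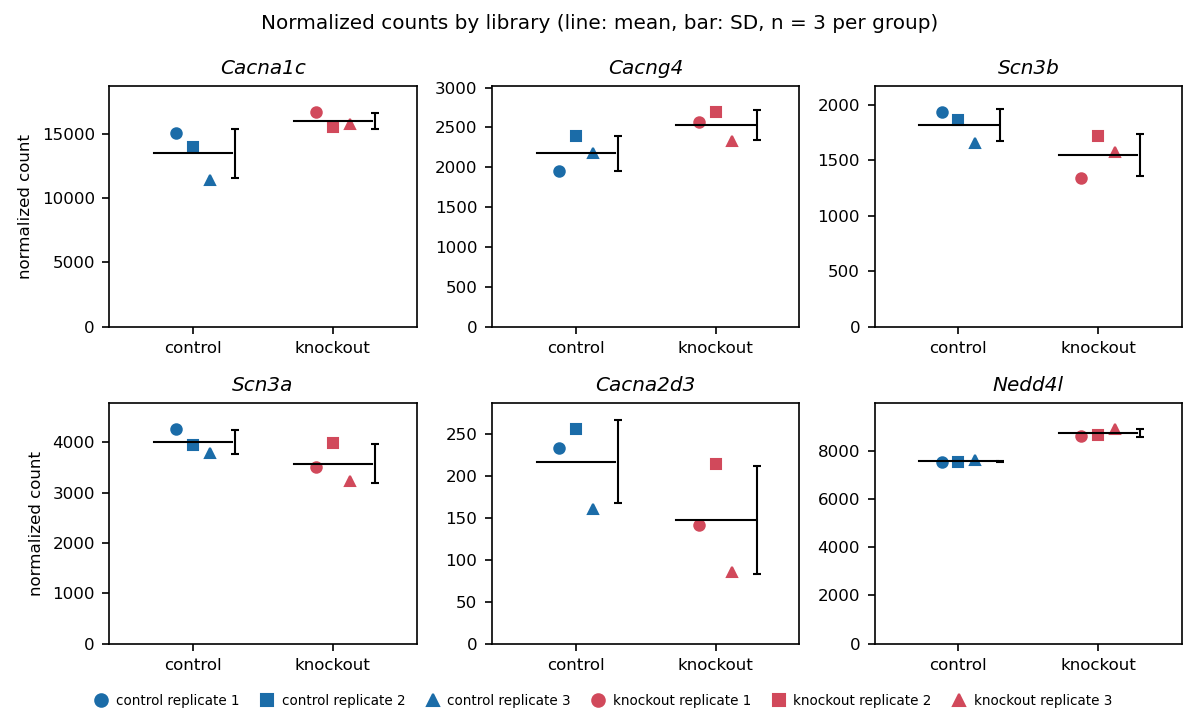
Normalized counts (vertical axes from 0) in each library for the channel genes Cacna1c, Cacng4, Scn3b, Scn3a and Cacna2d3 and the partner gene Nedd4l, with the mean as a line and the SD as a bar (n = 3 per group). Cacna1c and Nedd4l are the genes shown whose groups do not overlap, and of the 6 genes Nedd4l alone passed the DESeq2 threshold.

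The control libraries differed among themselves in the channel genes. Control library 3 held the lowest of the 6 normalized counts in 14 of 33 genes (42.4%), against 21.5% of all genes. It held the highest in 0 of 33, against 24.2% of all genes. Control libraries 1 and 2 each held the highest in 11 of 33 (33.3%), against 15.9% and 17.6% of all genes. Each held the lowest in 3 of 33 (9.09%), against 14.9% and 20.2% of all genes. The channel genes together took 0.124%, 0.111% and 0.101% of all counts in the controls and 0.117%, 0.112% and 0.117% in the knockouts, control library 3 being the lowest. Without this library DESeq2 called 952 genes over the whole table, in place of 389, and 0 channel genes.

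A list of 33 genes whose products bind, traffic or regulate these channels was examined in the same fit, and 1 of 33 passed (3.03%), against 2.19% of all genes. Nedd4l (ENSMUSG00000024589), a ubiquitin ligase that drives removal of sodium channels from the cell surface, had 7536, 7542 and 7602 normalized counts in the controls and 8617, 8638 and 8909 in the knockouts. Every knockout library lay above every control library. The means were 7560 ± 36.4 and 8722 ± 163 (SD, n = 3), the log2 fold change was 0.21 ± 0.06 (SE), an interval of 5.99% to 25.6%, and the DESeq2 adjusted p was 0.0453. The call was lost with edgeR, at an adjusted p of 0.240, and in 10 of 15 alternative analyses in all, the adjusted p ranging from 0.00428 to 0.240. At an unadjusted p under 0.05 there were 6 of 33 partner genes with DESeq2, against 11.5% of all genes, and 5 with edgeR. None of the other 5 passed the adjusted threshold. Calm2, a calmodulin gene, had a log2 fold change of -0.20 ± 0.08 (SE). Fgf12, an intracellular modulator of sodium channel inactivation, had -0.31 ± 0.13. Ank2, an ankyrin that anchors channels, had 0.21 ± 0.08, and Ahnak, a large scaffold protein that binds calcium channel beta subunits, had 0.30 ± 0.12. Without control library 1, DESeq2 called 2 partner genes, Calm2 and Ahnak, and Nedd4l was not among them.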

How the data were processed

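Whole-islet polyA RNA was sequenced in 6 libraries, 3 per genotype. The authors deposited 1 table of raw read counts per gene. FastQC, STAR, featureCounts, DESeq2 and the build mm10 are named in the submitters' processing notes, without versions; strand and mate settings are not given in the sources used here. Of the deposited counts from 1 to 10, 85.9 to 88.2% were even, so single reads may not be the counted unit. All 55536 gene identifiers matched GENCODE M21 (GRCm38), which gave exon lengths.

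Genes with at least 10 counts were tested with the DESeq2 1.42.0 Wald test (R 4.3.3), knockout against control, without covariates, as the series design states, at a Benjamini-Hochberg adjusted p of 0.05 over all genes. Fold changes are unshrunken. Alternatives were edgeR 4.0.16 with TMM factors, other filters, normalization and thresholds, a replicate block and leaving out each library; halved counts, no Cook's filter and longest-transcript lengths were added after the data were seen. The scripts were tested on simulated data. Values per library are given for the 12 highest members per kilobase, the next 5 by p and any called; a few results are not reported here. Members and lists were chosen with earlier results of these data known. Intervals cover spread between these libraries only.

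Exons of genes on the opposite strand overlap 20.0% of the Cacna1s exon bases, 16.0% of Cacnb4, 7.32% of Cacnb2, 5.86% of Cacng2, 4.67% of Cacna1d, 3.81% of Cacna1a, 1.77% of Cacnb1, 1.62% of Cacna1h, 1.41% of Scn9a and 1.03% of Cacna2d2; reads there cannot be assigned without strand.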

Additional observations from a re-analysis of the deposited data

How the results depend on the processing

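Under all 15 alternative analyses 0 channel genes passed the threshold, and the 12 highest genes per kilobase were the same set with longest-transcript lengths (12 of 12), in another order. Over the whole table the count of genes was 389; it was 29 with edgeR (24 higher, 5 lower), 614 at an adjusted p of 0.1, and 153 to 952 when a library was left out (153 without knockout library 1, 952 without control library 3). The partner count of 1 became 0 with edgeR, without the low-count filter, without independent filtering, with the replicate block and with halved counts, and was 0 to 2 when a library was left out. The correlations of same-numbered libraries' deviations were -0.048, -0.059 and 0.010 over 15811 genes. Those of differently numbered libraries ran from -0.024 to 0.066. With 3 libraries per group these values gave no sign of pairing by number but cannot exclude it. With the replicate block 405 genes passed, 281 of them shared with the 389. Under the block 0 channel genes passed and Nedd4l had a DESeq2 adjusted p of 0.149. Of 480 fold changes over 31 channel genes and Nedd4l (32 genes in all), 436 kept their direction and call, 10 lost the call, all for Nedd4l, and 34 changed sign. Outside leave-one-out analyses the sign changed only for Scn1a, at -0.036 with the block. In 16 genes leaving out a library changed the sign: the log2 fold change ranged from -0.062 to 0.14 for Cacna1a, -0.29 to 0.21 for Cacna1e, -0.066 to 0.27 for Cacna1g, -0.076 to 0.099 for Cacna1h, -0.27 to 0.26 for Cacna1i, -0.023 to 0.041 for Cacna2d1, -0.23 to 0.0081 for Cacna2d2, -0.12 to 0.80 for Cacng3 and -0.13 to 0.12 for Cacng7. It ranged from -0.44 to 0.36 for Scn11a, -0.19 to 0.28 for Scn1a, -0.28 to 0.051 for Scn2b, -0.035 to 0.071 for Scn4b, -0.14 to 0.090 for Scn7a, -0.19 to 0.055 for Scn8a and -0.073 to 0.090 for Scn9a. In the other 15 channel genes the sign held, but the value moved by over 1.5 times when some library was left out. The cause was not tested. Of the 9 genes with a mean under 50 normalized counts, none had an interval within 2-fold, and 3 were not fitted.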

Other observations

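The sodium leak channel complex, which carries a steady inward current that is not voltage-gated in the classical way, was well expressed. Its pore gene Nalcn had normalized counts of 6990, 6398 and 7739 in the controls and 6573, 6882 and 6188 in the knockouts, with an interval of -17.9% to 5.28%. Its large auxiliary subunit Unc80 had 50544, 39990 and 46165 against 42886, 46406 and 40327, an interval of -17.0% to 8.29%. The groups overlapped for both genes. Active-zone scaffold genes that tether calcium channels to release sites differed widely in their counts. Rimbp2 had 46516 to 56114 normalized counts in the controls and 48103 to 54635 in the knockouts, and Rims2 had 7466 to 8447 against 7601 to 7869. Rims1 had only 60.5 to 91.2 against 52.9 to 107. None of these genes passed the DESeq2 threshold, with adjusted p from 0.774 to 0.967 for the 5 genes named.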
